A study of Mus musculus with 8 samples.

Results

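The regions described here were those at which only the vinorelbine-resistant derivative of the mouse breast cancer line PB3 had a called peak of open chromatin. A region of the consensus list was taken when it overlapped a peak interval of PB3-VIN-R by at least 1 bp and no interval of the other 3 peak lists. The rule found 5262 of 57417 regions (9.16%), which is 11.6% of the 45244 regions with a PB3-VIN-R peak. They are called members below. Open chromatin was measured by ATAC-seq in 8 libraries, 2 from each of 4 lines. PB3-Parental was untreated. PB3-ERI-R, PB3-PAC-R and PB3-VIN-R were resistant clones obtained with 300, 500 and 800 nM of eribulin, paclitaxel or vinorelbine. All lines share the PB3 origin and the absence of Er, Pr and Her2 that the labels give. How many clones make up each resistant line is not given in the sources used here, and nothing states that the libraries of a line were separate cultures. The p-values below therefore measure only the spread between these libraries, which may be technical.

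In ATAC-seq a transposase inserts adapters where DNA is free of nucleosomes, so reads pile up at promoters, where transcription starts, and at distal elements such as enhancers, which often open in one cell state and close in another. A peak is a place where this pile-up passes a caller's threshold, and a region just under the threshold in 1 line and just over it in another is listed for the second line only. Vinorelbine is a vinca alkaloid that blocks tubulin polymerization, paclitaxel stabilizes microtubules, and eribulin blocks their growth.

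A total of 142 members held a gene start of the RefSeq promoter table, and 159 promoter windows of 32851 had their start inside a member. Each window spans 250 bases before the start and 50 after it, on GRCm38.p6. The windows shown are those of the 4 protein-coding starts at which PB3-VIN-R exceeded PB3-Parental most and of the 2 most accessible ones, a choice made after the values were seen. The first 4 show starts at which PB3-VIN-R stood above the other lines and the last 2 starts at which it did not. Coordinates here and below are on GRCm38 (mm10) and count from 1. Sequences run 5′ to 3′ along the gene, and capitals mark matches on either strand to the 9 motifs named below. The windows lie at chrX:45090654-45090953, + strand (Prr32), chr17:87797945-87798244, - strand (Kcnk12), chr14:103513091-103513390, + strand (Scel), chr9:121495645-121495944, - strand (Cck), chr12:112674835-112675134, - strand (Akt1) and chr13:31625566-31625865, + strand (Foxf2).
Prr32: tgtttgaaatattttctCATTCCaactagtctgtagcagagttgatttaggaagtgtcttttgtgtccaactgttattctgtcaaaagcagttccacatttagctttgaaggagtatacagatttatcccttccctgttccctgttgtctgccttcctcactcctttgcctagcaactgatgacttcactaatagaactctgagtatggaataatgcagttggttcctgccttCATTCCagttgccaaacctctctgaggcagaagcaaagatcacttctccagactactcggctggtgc
Kcnk12: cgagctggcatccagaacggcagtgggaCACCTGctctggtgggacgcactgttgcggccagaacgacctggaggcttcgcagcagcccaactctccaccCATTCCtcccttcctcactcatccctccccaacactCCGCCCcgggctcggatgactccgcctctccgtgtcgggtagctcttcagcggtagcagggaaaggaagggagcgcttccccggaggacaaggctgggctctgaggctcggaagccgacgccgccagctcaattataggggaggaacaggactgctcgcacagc
Scel: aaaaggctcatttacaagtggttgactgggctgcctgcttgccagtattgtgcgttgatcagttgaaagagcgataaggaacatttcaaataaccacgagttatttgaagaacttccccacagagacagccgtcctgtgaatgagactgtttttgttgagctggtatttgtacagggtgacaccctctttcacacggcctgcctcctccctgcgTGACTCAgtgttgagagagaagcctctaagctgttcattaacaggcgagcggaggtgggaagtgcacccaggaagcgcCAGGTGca
Cck: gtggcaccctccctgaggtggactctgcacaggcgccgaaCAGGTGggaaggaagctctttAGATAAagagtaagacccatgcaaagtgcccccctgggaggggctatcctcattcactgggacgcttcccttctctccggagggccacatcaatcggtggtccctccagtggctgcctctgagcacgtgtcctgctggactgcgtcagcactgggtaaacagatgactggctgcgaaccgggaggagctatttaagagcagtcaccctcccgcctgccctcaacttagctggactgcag
Akt1: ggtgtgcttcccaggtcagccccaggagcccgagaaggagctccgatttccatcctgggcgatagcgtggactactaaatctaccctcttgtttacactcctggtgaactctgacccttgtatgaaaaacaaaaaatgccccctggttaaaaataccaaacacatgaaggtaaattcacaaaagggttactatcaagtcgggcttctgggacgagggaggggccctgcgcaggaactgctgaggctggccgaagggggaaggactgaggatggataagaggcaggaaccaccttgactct
Foxf2: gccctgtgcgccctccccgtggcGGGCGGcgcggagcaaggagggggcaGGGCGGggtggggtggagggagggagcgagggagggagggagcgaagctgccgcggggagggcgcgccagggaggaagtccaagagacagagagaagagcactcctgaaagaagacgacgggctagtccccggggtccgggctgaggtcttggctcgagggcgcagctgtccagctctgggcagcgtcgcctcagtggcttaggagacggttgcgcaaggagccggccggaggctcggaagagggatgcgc

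Kcnk12 encodes a two-pore-domain potassium channel. The member at its start had 3.31 and 6.32 CPM in PB3-Parental, 0.650 and 0.664 in PB3-ERI-R, 3.64 and 2.40 in PB3-PAC-R, while PB3-VIN-R had 14.0 and 12.5. CPM are counts scaled to a common library size and are not divided by region width. Both PB3-VIN-R libraries stood above the other 6. In libraries of bulk cells, more cells with the region open and more signal per cell cannot be told apart. At the start of Scel, which encodes sciellin of the cornified envelope, the values were 1.87 and 1.13, 0.0929 and 0.221, 1.67 and 1.30, and 3.51 and 4.04 CPM in the same order of lines. At the start of Cck, the gene of the gut hormone and neuropeptide cholecystokinin, they were 2.35 and 1.66, 1.11 and 0.775, 2.04 and 2.05, and 4.77 and 4.99 CPM. Prr32, on chromosome X, had 4.27 and 5.87 CPM in PB3-VIN-R and 1.02 to 1.88 in the other 6 libraries. It lies between 35 and 60 Mb, a stretch described below whose 160 other regions had a median log2 difference from PB3-Parental of 0.61. At these 4 starts the PB3-VIN-R libraries did not overlap those of any other line, which their choice favours. Both PB3-VIN-R libraries exceeded every other library at 17.9% of all members and 4.46% of all regions. Akt1, which encodes a survival kinase, had 30.5 and 29.5 CPM in PB3-Parental and 33.6 and 33.0 in PB3-VIN-R, inside the range of 28.3 to 37.7 CPM in the other 6 libraries. Foxf2, a forkhead transcription factor gene, had 29.1 and 30.1 CPM in PB3-VIN-R beside 27.1 and 25.4 in PB3-Parental and 30.1 and 19.2 in PB3-PAC-R.

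Among the letters searched, the Kcnk12 window held the motif CACCTG, the E-box of Zeb and Snai factors, GGAATG of TEAD factors and GGGCGG of SP/KLF factors. The Scel window held TGANTCA of AP-1 at bases 215 to 221, inside the member. The Akt1 window held none of the 9 motifs. Over all 159 windows, TGANTCA was found in 14.5%, against 7.81% of all 32851 windows, and GGGCGG in 48.4% against 35.7%. CCAAT of NFY was found in 28.3% against 37.4%, AGATAA of GATA in 7.55% against 11.2%, and CCGGAA of ETS in 12.6% against 14.9%. The others were GGAATG in 16.4% against 14.7%, TGTGGT of RUNX in 18.9% against 16.8%, CACCTG in 20.8% against 20.2% and ACAAAG of SOX in 20.8% against 18.7%. Both strands were searched, and no matches overlapped in the 6 windows shown. The GC content was 59.9% in the windows at members and 53.8% over all windows, and its part in these shares was not tested.

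A peak in PB3-VIN-R alone did not mean reads in PB3-VIN-R alone: the levels of PB3-Parental and PB3-PAC-R at the median member lay close below those of PB3-VIN-R. The median member had 5.57 and 5.08 CPM in PB3-VIN-R, 4.81 and 4.45 in PB3-PAC-R, 4.57 and 4.06 in PB3-Parental, and 1.49 and 1.77 in PB3-ERI-R. The medians of PB3-VIN-R were the highest of the 8 and those of PB3-ERI-R the lowest. At 22.1% of members the mean of PB3-Parental reached 6.66 CPM, the level that 90% of the regions with a parental peak exceed, and at 28.8% the mean of PB3-PAC-R reached that of its own peaks (6.24 CPM). The same share was 57.0% for PB3-VIN-R (4.96 CPM) and 5.49% for PB3-ERI-R (11.1 CPM). No member was at 0 counts in any library of PB3-Parental, PB3-PAC-R or PB3-VIN-R, whereas 109 and 51 members were at 0 counts in the libraries of PB3-ERI-R. The 2 PB3-VIN-R libraries were also the deepest, with 24052237 and 23206697 counts over the regions, against 10521964 to 15644934 in the other 6. In raw counts the median member had 146 and 122 in PB3-VIN-R, 76 and 61 in PB3-Parental and 78 and 65 in PB3-PAC-R. Thinned to 10521964 counts per library these medians were 64 and 56, 52 and 46, and 55 and 50, and 13 and 16 in PB3-ERI-R. The part of depth in where peaks were called was not tested.

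**Figure D1:**
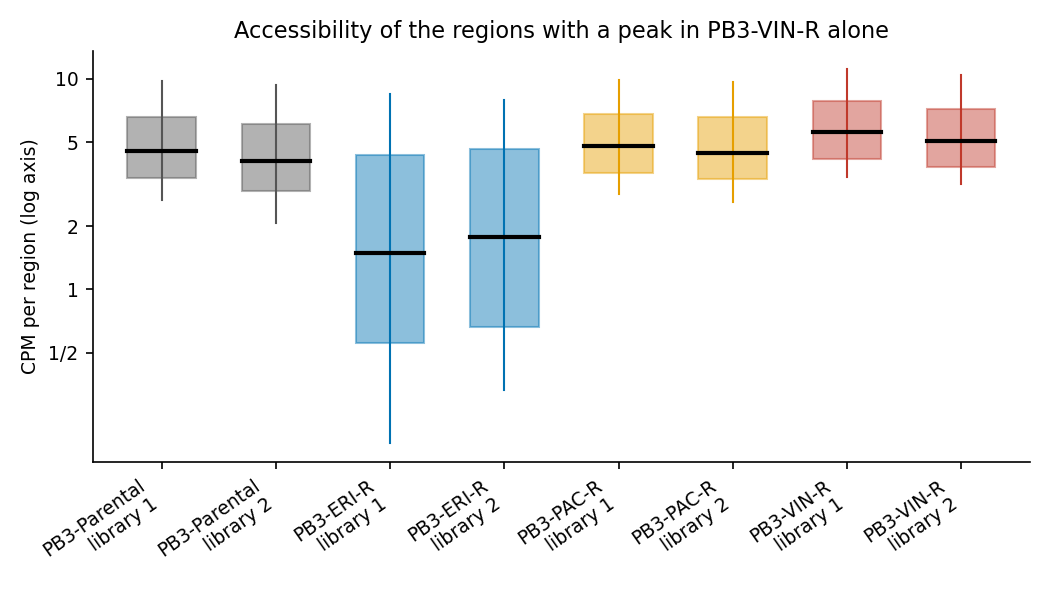
CPM of the 5262 members in each of the 8 libraries, on a log axis. Boxes span the quartiles, black lines are medians and thin lines run from the 10th to the 90th percentile; the PB3-Parental and PB3-PAC-R boxes overlap those of PB3-VIN-R over most of their height, and the PB3-ERI-R medians lie lowest, at 1.49 and 1.77 CPM.

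The peaks behind the members were the weaker ones of the PB3-VIN-R list. The peak score, a reproducibility score of the deposited lists that runs from 830 to 1000, had a median of 911 at members and 1000 at the 39982 other regions with a PB3-VIN-R peak. The top score was reached by 816 members (15.5%) and by 82.4% of those other regions. The fold enrichment at the summit, as the authors give it, had a median of 17.6 at members and 21.2 elsewhere, and the -log10 q value 159 against 400. Members were narrow, with a median width of 280 bp against 473 bp over all regions. At the edge of the rule, the members of lowest score lay near Galnt10, Zdhhc17 and Tnfrsf11b, each with a score of 830. They had 4.98 ± 0.510, 3.32 ± 0.00718 and 2.82 ± 0.108 CPM in PB3-VIN-R (mean ± SD, n = 2 libraries here and below), and 4.96 ± 1.08, 3.59 ± 0.478 and 4.13 ± 0.378 in PB3-Parental. Just outside lay regions near Calcoco1, Kank2 and Pard3b, which had a PB3-VIN-R peak and a peak of score 830 in 1 other line, with 5.15 ± 0.697, 9.53 ± 2.54 and 9.40 ± 1.70 CPM in PB3-VIN-R.

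The members were chosen by the peak calls, and so by the values of PB3-VIN-R against the other 3 lines, so these differences, and the calls of the fit at members, are given as a description beside their backgrounds, and nothing is read from them. The fitted log2 difference of PB3-VIN-R minus PB3-Parental had a median of 0.22 over the members, with 10th and 90th percentiles of -0.16 and 0.89, against a median of -0.01 over all regions. Without the first PB3-Parental library the members' median was 0.37. A total of 4185 members (79.5%) differed by less than 1.5-fold upward or lay below PB3-Parental, and 1237 had a lower mean in PB3-VIN-R than in PB3-Parental. The difference reached 2-fold at 407 members (7.73%). Both PB3-VIN-R libraries exceeded both PB3-Parental libraries at 2034 members (38.7%, against 15.4% of all regions), and every library of the other 3 lines at 942 (17.9%, against 4.46%). The fit over all regions called PB3-VIN-R higher at 110 members (an edgeR adjusted p under 0.05), where the background of higher calls over 57415 regions was 0.388%. It called 0 members lower (17 at an unadjusted p under 0.05 and 0 by DESeq2), where the background was 0.289%. The count of 110 became 262 without the first and 13 without the second PB3-Parental library, 43 without either PB3-ERI-R library, and 13 and 6 without the first and second PB3-VIN-R library. With the replicate number as a block the count of 110 was 498. Against PB3-PAC-R, edgeR called 0 members in either direction (387 higher and 4 lower at an unadjusted p under 0.05), with backgrounds of 0.00174% and 0.00697%. Against PB3-ERI-R, 3468 members were called higher and 272 lower, with backgrounds of 37.5% and 35.5%.

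**Figure D2:**
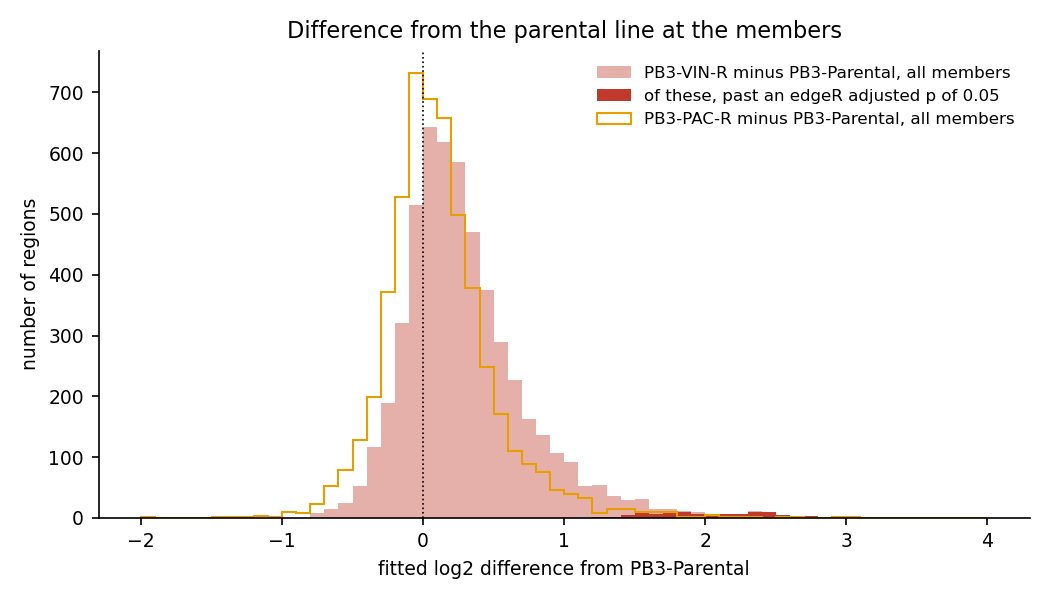
Histogram of the fitted log2 difference from PB3-Parental at the 5262 members, for PB3-VIN-R (filled, with the 110 members past an edgeR adjusted p of 0.05 in dark red) and for PB3-PAC-R (outline), in bins of equal width. The filled distribution has its median at 0.22 and a right tail that reaches 3.81, and the outline has its median at 0.07.

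Described next are the 10 members with the largest fitted difference from PB3-Parental among those within 50 kb of a protein-coding gene and with a PB3-VIN-R mean of at least 2 CPM. Near Olfr149, an olfactory receptor gene, the member at chr9:39701181-39701392 had 0.421 and 0.0665 CPM in PB3-Parental, 0.464 and 0.664 in PB3-ERI-R, 0.556 and 0.548 in PB3-PAC-R, and 3.09 or more in both PB3-VIN-R libraries. The other 6 libraries held 1 to 9 counts each there, and the 2 PB3-VIN-R libraries 81 and 101. Inside Gabrb1, which encodes a GABA-A receptor subunit, the member at chr5:71694321-71694617 had 1.08 and 0.466 CPM in PB3-Parental, 0.464 and 0.111 in PB3-ERI-R, 1.73 and 1.85 in PB3-PAC-R, while PB3-VIN-R had 5.72 and 8.36. At both regions PB3-VIN-R stood clear of the other 3 lines, at a fitted log2 difference from PB3-Parental of 3.81 ± 0.50 and 3.15 ± 0.40 (estimate ± SE).

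PB3-PAC-R lay between the parental and the vinorelbine-resistant line at all of the 10 but the member in Psd3. At Olfr149 and Gabrb1 it lay closer to PB3-Parental. In or near Galc, Slco1a1 and Slc13a1 it stood well above PB3-Parental. Galc encodes the lysosomal enzyme galactosylceramidase, and the member inside it at chr12:98255440-98255940 had 1.93 and 2.06 CPM in PB3-Parental, 0.557 and 1.22 in PB3-ERI-R, 6.05 and 8.22 in PB3-PAC-R, while PB3-VIN-R had 16.1 and 16.6. The member 10524 bp from Slco1a1, an organic anion transporter gene, had 0.903 and 0.732, 0.929 and 1.11, 6.85 and 3.01, and 9.99 and 7.82 CPM in the same order. It lies in the distal stretch of chromosome 6 described below, whose other regions had a median log2 difference of 0.29. The member near Slc13a1, a sodium-sulfate cotransporter gene, had 1.93 and 0.399, 1.02 and 1.44, 4.51 and 6.71, and 7.67 and 12.2 CPM. In Psd3, an exchange factor gene for Arf GTPases, both PB3-PAC-R libraries (3.95 and 4.38 CPM) lay above both of PB3-VIN-R (3.66 and 3.87), and PB3-Parental had 0.783 or less. The remaining members of the 10 lay in or near Ugt3a2, a glycosyltransferase gene, P2rx7, an ATP-gated channel gene, Cyp2j5, a cytochrome P450 gene, and Tcerg1l, with fitted log2 differences of 3.55, 2.94, 2.93 and 2.80. In PB3-PAC-R these members had 1.67 and 2.12, 2.04 and 1.85, 1.98 and 1.51, and 4.20 and 4.66 CPM in that order. At 9 of the 10, the second PB3-Parental library was the lower of the pair, and Galc was the exception.

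**Figure D3:**
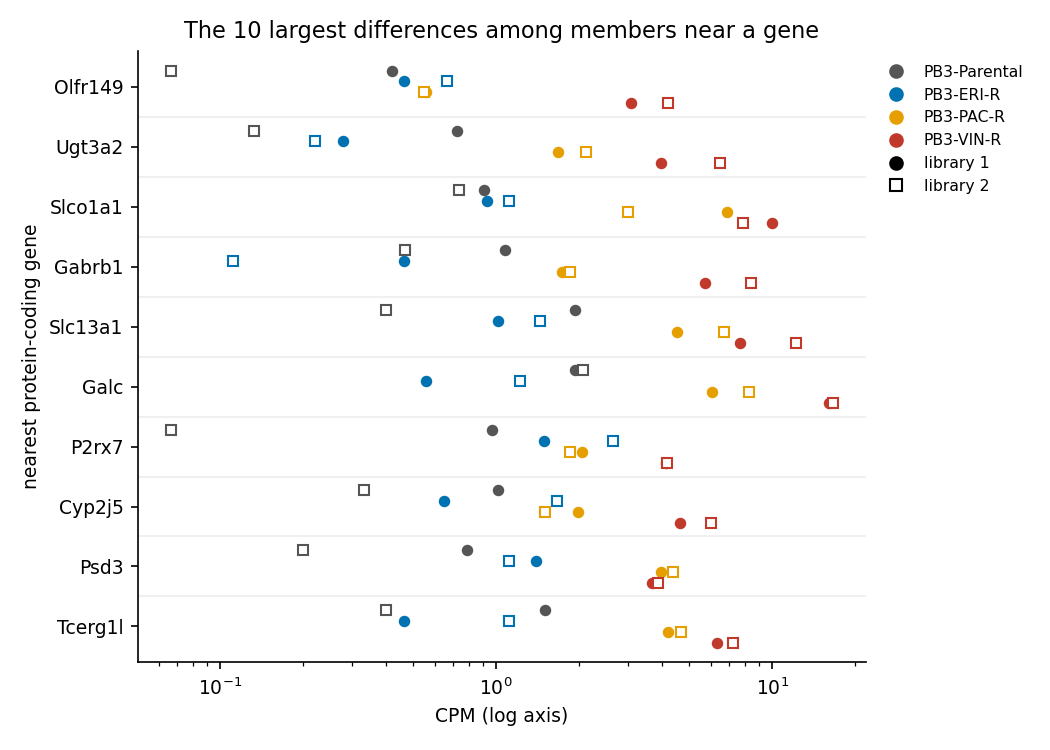
CPM of each library, on a log axis, at the 10 members within 50 kb of a gene with the largest fitted difference of PB3-VIN-R from PB3-Parental, 1 row per nearest gene. Colours mark the line and symbols the library; the red PB3-VIN-R points lie to the right of all others in each row but Psd3, where the PB3-PAC-R points reach 4.38 CPM and the PB3-VIN-R points 3.87.

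The 110 members with the called difference were picked for low parental and high PB3-VIN-R values, and their levels are a description. The median of the line means was 1.59 CPM in PB3-Parental, 0.902 in PB3-ERI-R, 3.60 in PB3-PAC-R, while PB3-VIN-R had 6.46. Both PB3-VIN-R libraries exceeded every other library at 90 of them, beside 17.9% of all members and 4.46% of all regions, and their choice favours this. Both PB3-PAC-R libraries exceeded both PB3-Parental libraries at 97 of them, which the choice for low parental values also favours. The share over all regions was not counted. Of the 110, 54 lay inside a protein-coding gene, 30 lay over 50 kb from one, and 5 of the 102 on chromosomes covered by the start table lay within 1 kb of a gene start. Auts2, a neurodevelopmental gene chosen here after its values were seen, held 4 of the 110 among its 5 members. Their PB3-VIN-R values were 3.78 to 6.14 CPM, and their PB3-Parental values 0.133 to 1.69. The fifth had 7.71 and 8.20 CPM in PB3-VIN-R, 3.67 and 1.20 in PB3-Parental, and 21.5 and 15.9 in PB3-ERI-R. Summed over the other 19 regions of Auts2, PB3-ERI-R had 727 and 509 CPM, PB3-VIN-R 27.9 and 18.5, PB3-PAC-R 11 and 6.09, and PB3-Parental 9.45 and 5.16.

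At the 2 most accessible members the lines overlapped, and at others of the 10 highest PB3-ERI-R or PB3-VIN-R stood apart. The strongest by CPM, a wide region of the chromosome 8 locus of Zswim4, had 109 and 76.7 CPM in PB3-VIN-R, 123 and 76.1 in PB3-Parental, 99.2 and 66.8 in PB3-PAC-R, while PB3-ERI-R had 125 and 73.0. In Fosb, an AP-1 subunit gene, the member had 72.6 and 46.6, 78.1 and 39.9, 74.6 and 39.5, and 81.1 and 34.1 CPM in the same order. At both regions the first library exceeded the second in each of the 4 lines by more than the lines differed. In Src, a tyrosine kinase gene, PB3-VIN-R had 51.5 and 41.6 CPM, PB3-Parental 44.5 and 36.4, PB3-PAC-R 38.0 and 31.0, and PB3-ERI-R 12.4 and 8.53. Near Msln, the gene of the surface protein mesothelin, PB3-ERI-R had 1.30 and 1.22 CPM and the other 6 libraries 15.7 to 47.8. PB3-ERI-R lay lowest at both. At Src both PB3-VIN-R libraries exceeded both of PB3-PAC-R, and PB3-Parental overlapped each, while at Msln these 3 lines overlapped. The member whose nearest gene is Arf6, a small GTPase gene, had 37.5 and 32.7 CPM in PB3-VIN-R, 24.5 and 12.8 in PB3-Parental, 23.9 or less in both PB3-PAC-R libraries, and 0.464 and 0.997 in PB3-ERI-R. Near Phlpp1, an Akt phosphatase gene, PB3-VIN-R had 31.1 and 37.3 CPM, PB3-Parental 23.5 and 23.3, PB3-PAC-R 22.9 and 23.3, and PB3-ERI-R 33.8 and 45.4. At Arf6 and Phlpp1 both PB3-VIN-R libraries lay above those of PB3-Parental and PB3-PAC-R.

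Within 1 kb of a gene end lay 442 members (8.40%). Besides Akt1 and Foxf2, the 10 most accessible of these lay at Gas1, Krt8, Rrbp1, Gxylt2, Emp3, Ier2, Apln and Fjx1. Krt8, an epithelial keratin gene, had 31.0 and 26.8 CPM in PB3-VIN-R, between the 35.8 and 26.0 of the PB3-Parental libraries. Emp3, a membrane protein gene, had 24.3 and 25.9 CPM in PB3-VIN-R, 22.6 and 17.2 in PB3-Parental, 28.5 and 25.6 in PB3-PAC-R, while PB3-ERI-R had 0.743 and 1.33. Gxylt2, a xylosyltransferase gene, was likewise lowest in PB3-ERI-R, with 1.39 and 2.66 CPM in PB3-ERI-R and 21.4 to 28.3 in the other 6 libraries. Apln, the gene of the peptide apelin, had 21.6 and 26.3 CPM in PB3-VIN-R and 13.2 to 19.9 in the other 6. Like Prr32 it lies in the stretch of chromosome X described below.

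The rule required that PB3-PAC-R and PB3-Parental both lack a peak at the members, so the contrast between these lines is also given as a description, with no p. The parental libraries enter this contrast, that of PB3-VIN-R and that of PB3-ERI-R. The fit called PB3-PAC-R higher at 6 members (0.114%), against a background of 0.0314% of regions called higher, and 0 were called lower by edgeR (69 at an unadjusted p under 0.05 and 1 by DESeq2), against 0.0540%. Over all members the median log2 difference of PB3-PAC-R from PB3-Parental was 0.07, against -0.01 over all regions. It was 0.17 without the first and 0.02 without the second PB3-Parental library, 0.01 without the first PB3-PAC-R library, and 0.03 with loess offsets. First among the 6 was the member at chr15:69852031-69852335, 750237 bp from Khdrbs3, with 3.70 and 4.93 CPM in PB3-PAC-R, 0.662 and 0.399 in PB3-Parental, 4.58 and 5.53 in PB3-VIN-R, and 0.372 and 0.443 in PB3-ERI-R (log2 2.99 ± 0.38 for PB3-PAC-R minus PB3-Parental). The others were the members described above in Psd3 (3.03 ± 0.43), near Slco1a1 (2.58 ± 0.42) and in Galc (1.83 ± 0.31), and those in Endou and Nr3c2. In Endou, a poly(U)-specific endoribonuclease gene, the member had 11.8 CPM in both PB3-PAC-R libraries, 13.5 and 15.6 in PB3-VIN-R, 3.55 and 1.93 in PB3-Parental, and 6.32 and 3.88 in PB3-ERI-R (log2 2.10 ± 0.32). In Nr3c2, the mineralocorticoid receptor gene, the lines had 3.02 and 3.83, 4.92 and 4.33, 0.843 and 0.532, and 5.20 and 5.09 CPM in the same order (log2 2.29 ± 0.35). At each of the 6, both libraries of PB3-PAC-R stood above both of PB3-Parental, which their choice by the fit favours. The count of 6 was 34 without the first PB3-Parental library, 0 without the second or without either PB3-ERI-R library, 1 without either PB3-VIN-R library, and 2 without the first PB3-PAC-R library. It was 13 with DESeq2, 3 with loess offsets, 0 with only these 2 lines in the fit and 72 with the replicate number as a block.

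PB3-ERI-R was the line in which members were least accessible. The log2 difference of PB3-ERI-R minus PB3-Parental had a median of -1.44 over the members and 0.07 over all regions. Other regions without a PB3-ERI-R peak were low in that line too. The median was -2.28 at regions with a peak in every other line and -1.58 at those of PB3-PAC-R and PB3-VIN-R only. It was -1.92 at those of PB3-Parental alone and -0.84 at those of PB3-PAC-R alone. The members were required to lack an eribulin peak, so the calls of the fit are again a description. PB3-ERI-R was called lower at 3153 members and higher at 398, against backgrounds of 37.6% and 35.4%. The split was 3471 to 160 without a scaling factor, which moved the median over all regions to -0.29, 3491 to 143 with upper-quartile factors and 2674 to 1268 with loess offsets. Without the first PB3-ERI-R library, 262 were called higher. The member near E2f8, a cell cycle transcription factor gene, had 0.557 and 0.664 CPM in PB3-ERI-R and 20.8 to 25.9 in the other 6 libraries. Near Wdr81 the values were 0.279 and 0.332 against 18.6 to 28.3 CPM, and near Col8a1, a collagen gene, 0.186 and 0.332 against 12.5 to 18.1. In the other direction, the member near Zfp281, a zinc finger factor gene, had 31.9 and 19.5 CPM in PB3-ERI-R and 5.52 to 7.71 in the others.

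Members lay mostly away from gene starts. Of the 5072 members on chromosomes covered by the start table, 7.75% lay within 1 kb of a start, against 21.3% of all regions and 47.0% of regions with a peak in every line. Their median distance to a start was 23.2 kb, against 16.3 kb over all regions. Inside a protein-coding gene lay 53.8% (58.7% of all regions), and over 50 kb from one lay 19.1% (15.9%). In this respect members were close to the 15470 regions with a peak in every line but PB3-ERI-R, of which 8.33% lay within 1 kb of a start. Those regions had median CPM of 13.1 to 13.7 in the 6 libraries outside PB3-ERI-R, above the members' medians. The 835 regions with a peak in PB3-PAC-R alone were of a low level like the members, with medians of 5.62 and 5.68 CPM in that line. So were the 746 with a peak in PB3-Parental alone, with parental medians of 6.44 and 6.99 CPM. The 9700 regions of PB3-ERI-R alone differed in kind, with medians of 23.2 and 19.9 CPM in PB3-ERI-R and 0.957 to 1.33 in the other 6 libraries.

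The 4259 members with a protein-coding gene within 50 kb belonged to 3241 genes, of which 2529 had 1 member and 25 had 5 or more. Abr, which encodes a GTPase-activating protein for Rac, had 8 members among its 13 regions. Summed over them, PB3-VIN-R had 58.8 and 41.0 CPM, PB3-PAC-R 46.5 and 29.6, PB3-Parental 40.3 and 25.8, and PB3-ERI-R 21.5 and 25.5. PB3-PAC-R overlapped both PB3-VIN-R and PB3-Parental there, the lower PB3-VIN-R library lay just above the higher parental one, and the log2 difference of single members from PB3-Parental ran from 0.10 to 1.40. Psd3 and Rbms1, an RNA-binding protein gene, had 7 members each. At Rbms1 the 12 other regions summed to 256 and 254 CPM in PB3-VIN-R and 243 and 251 in PB3-Parental. Fmnl2, a formin gene, Gipc2, Gramd1b, a sterol transfer gene, Lpp, a focal adhesion gene, Phlpp1, Runx2, a bone transcription factor gene, and Srgap3, a Slit-Robo GTPase-activating gene, had 6 each. At Gramd1b, whose 6 members made up 54.5% of its 11 regions, they summed to 55.8 and 50.1 CPM in PB3-VIN-R, 38.6 and 34.0 in PB3-Parental, 40.1 and 35.9 in PB3-PAC-R, while PB3-ERI-R had 1.95 and 3.99. Among these 10 genes, none had other regions that passed the test as a locus (edgeR adjusted p = 0.318 to 1.00, the lowest at Srgap3).

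By pathway, members were spread thinly. The gene lists were chosen with earlier results of these data known, and their shares are descriptions to be read beside 8.82%, the share of members over all regions with a gene within 50 kb. Of 24 lists, the share was highest for neural markers, with 8 of 47 regions (17.0%), macrophage markers, with 3 of 22 (13.6%), and guidance and neural adhesion genes, with 49 of 382 (12.8%). It was 0 of 36 for housekeeping genes, and the 12 T and B cell markers had 2 regions in all, neither of them a member. The median log2 difference of a list's members from PB3-Parental lay between -0.11 and 0.51, beside 0.22 over all members. Regions near a marker show open chromatin there and not expression of the gene or presence of the cell type.

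For the drug target itself, 12 of 149 regions of tubulin and microtubule-associated genes were members (8.05%, median log2 difference 0.13). Map4, a microtubule-associated protein gene, had 16.1 and 19.0 CPM in PB3-VIN-R and 17.0 and 19.8 in PB3-Parental. Tuba1b, an alpha-tubulin gene, had 7.29 and 7.16 CPM in PB3-VIN-R, 6.02 and 5.19 in PB3-Parental, and 7.04 and 10.2 in PB3-PAC-R. Among kinesin and dynein genes 9 of 76 regions were members (11.8%), with Kif5c at 6.90 and 5.95 CPM in PB3-VIN-R and 3.97 and 3.19 in PB3-Parental. Among mitotic genes 6 of 69 were (8.70%), and among apoptosis regulators 12 of 113 (10.6%). A member near Bcl2 had 16.2 and 11.9 CPM in PB3-VIN-R, 15.7 and 7.52 in PB3-Parental, and 15.2 and 13.6 in PB3-PAC-R. For drug efflux and detoxification genes, the regions near them held 8 members (7.55%). The highest by level in PB3-VIN-R, in the cytochrome P450 gene Cyp1a1, had 11.9 and 11.1 CPM against 6.80 and 6.12, and that of Slco1a1 is described above.

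Genes of the epithelial-mesenchymal axis, which the series is about, held members with differences on both sides of the median of all members. Epithelial adhesion and keratin genes had 14 of 123 regions (11.4%), with a median log2 difference of 0.19 and a highest of 0.86. Epithelial transcription and splicing factors had 4 of 86 (4.65%), including one in Gata3 at 12.6 and 10.3 CPM in PB3-VIN-R, 12.4 and 9.98 in PB3-Parental and 1.02 and 0.664 in PB3-ERI-R. EMT transcription factors had 11 of 96 (11.5%), with a median of 0.45 and a range of -0.04 to 0.77. At 6 of the 11 both PB3-VIN-R libraries lay above both parental ones, beside 38.7% of all members and 15.4% of all regions. The same held at 2 of the 14 epithelial adhesion members and 1 of the 4 of epithelial factors. It held at 3 of the 19 mesenchymal and matrix members and 4 of the 12 of the TGF-beta pathway. In Zeb1, a repressor of epithelial genes, the member had 8.05 and 8.45 CPM in PB3-VIN-R and 8.79 and 8.12 in PB3-Parental, the lowest difference of the 11. In Fosl1, an AP-1 subunit gene, the values were 17.4 and 12.8 against 14.3 and 8.05 CPM, and in Tcf4, an E-protein gene, 7.71 and 7.20 against 6.50 and 4.39. Mesenchymal and matrix genes had 19 of 202 (9.41%) and the TGF-beta pathway 12 of 198 (6.06%). Receptor tyrosine kinases and ligands had 16 of 255 (6.27%). Among them the member near Ereg, the gene of the EGF receptor ligand epiregulin, had 8.39 and 9.32 CPM in PB3-VIN-R, 6.97 and 4.79 in PB3-PAC-R, 3.61 and 1.53 in PB3-Parental, and 0.557 and 0.775 in PB3-ERI-R.

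The members were not evenly spread along the genome. The median distance to the nearest other member was 97.9 kb, and 1766 had another within 50 kb. On chromosome X between 35 and 60 Mb, 54 of 214 regions were members (25.2%), against 10.5% on the rest of that chromosome and 9.16% in all. The members there had a median log2 difference from PB3-Parental of 0.75. The bounds of this stretch, and of that on chromosome 6 below, were set after the windows were seen, so their values are a description. The 160 other regions of the stretch, which are not members, had a median of 0.61 for PB3-VIN-R and 0.17 for PB3-PAC-R. On the rest of the chromosome these medians were -0.00 and -0.03. Both PB3-VIN-R libraries exceeded both parental ones at 131 of these 160 (81.9%), where the share over all regions was 15.4%. Summed, the 160 regions had 1730 and 1790 CPM in PB3-Parental, 2520 and 3000 in PB3-VIN-R, 1960 and 2010 in PB3-PAC-R, while PB3-ERI-R had 2390 and 2400. On the rest of the chromosome, the 1010 other regions summed to 11000 and 11600 CPM in PB3-Parental and 10700 and 12200 in PB3-VIN-R. There PB3-PAC-R had 10900 and 11200, and PB3-ERI-R 23800 and 23700. Of the 4 windows of 5 Mb in this stretch that held at least 20 regions, all had non-member medians of 0.61 to 0.69, and the next highest of 503 windows had 0.33. From 110 Mb to the end of chromosome 6, 162 of 1128 regions were members (14.4%, against 8.02% on the rest of chromosome 6). The 966 other regions had medians of 0.29 for PB3-VIN-R and 0.25 for PB3-PAC-R. On the rest of chromosome 6 the medians of the non-member regions were -0.08 and 0.15. Copy number was not measured, so more DNA and more open chromatin per copy cannot be told apart in these stretches. Of the 110 called members, 9 lay in the stretch of chromosome X. With offsets of the median fold in 5 Mb windows, 96 members were called higher, and their overlap with the 110 was not counted.

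**Figure D4:**
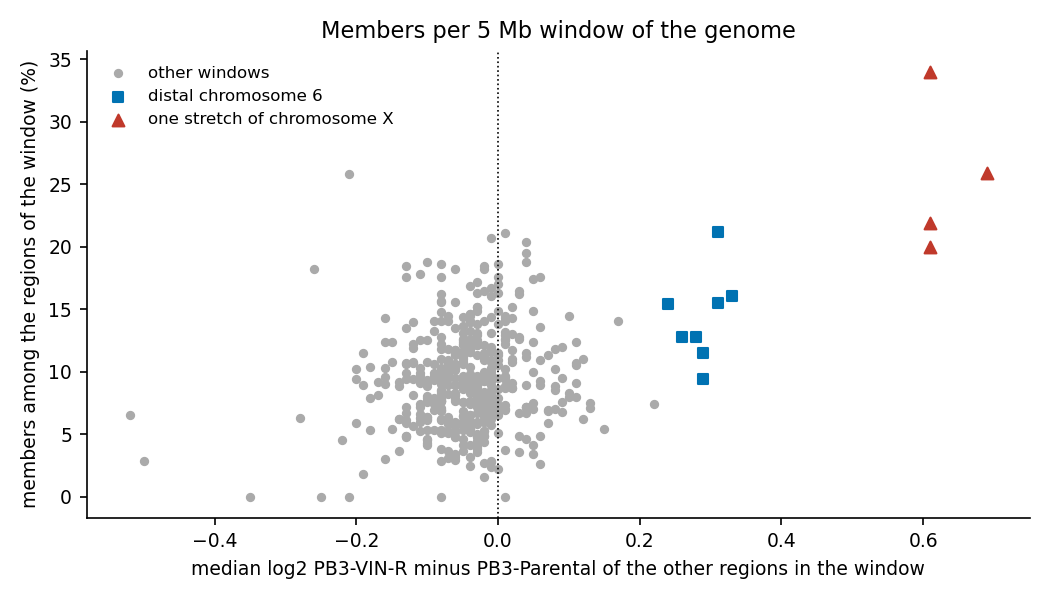
Share of members among the regions of each 5 Mb window (vertical axis, percent) against the median log2 difference of PB3-VIN-R minus PB3-Parental of the window's other regions (horizontal axis), for 503 windows with at least 20 regions. The 4 windows of the stretch of chromosome X lie at the far right, with medians of 0.61 to 0.69 and up to 34.0% members, and those of distal chromosome 6 lie between them and the rest.

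Whether regions near a member also differed was asked at the regions left after the rule had taken the members. The rule took 110 of the 223 regions called higher and 0 of the 166 called lower. The shares that rose here and at the loci below therefore leave those 110 out. Of 16192 other regions within 50 kb of a member, 34 rose (0.210%) and 35 fell (0.216%) in PB3-VIN-R against PB3-Parental. Of 35961 farther away, 79 rose (0.220%) and 131 fell (0.364%). The shares that rose lay close together, and the difference between the shares was not tested. One of the 2 other regions of Endou, 829 bp from its member, rose from 19.4 and 13.1 CPM in PB3-Parental to 50.4 and 60.6 in PB3-VIN-R, with 41.0 and 52.9 in PB3-PAC-R, while PB3-ERI-R had 7.15 and 7.75 (PB3-VIN-R minus PB3-Parental log2 1.77 ± 0.21, edgeR adjusted p = 0.00367). In Ct55, on chromosome X, the neighbour 1471 bp away rose from 6.02 and 4.53 to 22.4 and 20.7 CPM (2.02 ± 0.24, edgeR adjusted p = 0.00395). Near Hlx, a homeobox gene, a region without a PB3-VIN-R peak rose from 0.482 and 0.932 to 3.78 and 4.29 CPM, with 47.2 and 41.1 in PB3-ERI-R (2.52 ± 0.34, edgeR adjusted p = 0.00631). Regions near Ranbp3l and in Fgf13 rose by 2.22 ± 0.31 and 1.87 ± 0.26. Those that fell with the smallest p lay in Reep3, Zfp697 and Magi1 and at a distance from Runx1 and Nr3c1. In Magi1, a junction scaffold gene, the region at a gene start fell from 5.30 and 7.59 CPM to 1.98 and 1.71, with 6.60 and 6.64 in PB3-PAC-R, while PB3-ERI-R had 52.8 and 40.3 (PB3-VIN-R minus PB3-Parental log2 -1.79 ± 0.27, edgeR adjusted p = 0.0104). The count of 34 was 130 without the first and 5 without the second PB3-Parental library, 12 and 13 without a PB3-ERI-R library, and 5 and 1 without a PB3-VIN-R library. That of 35 was 88 and 3, 7 and 7, and 2 and 1 in the same order, and 56 without the second PB3-PAC-R library. DESeq2 called 70 and 75, and the fit with the replicate number as a block 307 and 337.

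The same question was put to whole loci, with counts summed over the non-member regions of each gene. Of 2896 such loci of genes with a member, 17 rose in PB3-VIN-R (0.587%) and 3 fell (0.104%). Of 11700 loci of genes without one, 24 rose (0.205%) and 39 fell (0.333%), and the background over all 14596 loci was 0.281% and 0.288%. The difference between these shares was not tested. Of the 17, 8 lay in the stretch of chromosome X described above: Arhgap36, Ct55, Dock11, Elf4, Fgf13, Hs6st2, Plac1 and Xiap. Xiap, an inhibitor of caspases, rose from 43.4 and 41.3 CPM in PB3-Parental to 69.9 and 67.2 in PB3-VIN-R, with 54.8 and 49.0 in PB3-PAC-R, while PB3-ERI-R had 55.5 and 59.8 (PB3-VIN-R minus PB3-Parental log2 0.69 ± 0.11, edgeR adjusted p = 0.0259). Fgf13, a member of the FGF family that acts inside the cell, rose from 49.5 and 47.9 to 103 and 103 CPM (1.08 ± 0.11, edgeR adjusted p = 0.00823), and Dock11, an exchange factor gene for Cdc42, from 52.7 and 53.1 to 87.1 and 92.4 (0.76 ± 0.10, 0.0185). With the window offsets for chromosome-wide shifts, 7 loci rose and 1 fell.

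Outside that stretch the loci that rose were BC049352, Endou, Golt1b, Igfbp2, Kcnmb2, Klf12, Nr3c2, Setbp1 and Slc13a1. Kcnmb2, the gene of a calcium-activated potassium channel subunit, rose from 29.2 and 31.2 CPM in PB3-Parental to 57.0 and 58.2 in PB3-VIN-R, with 30.6 and 28.6 in PB3-PAC-R, while PB3-ERI-R had 17.2 and 19.9 (PB3-VIN-R minus PB3-Parental log2 0.93 ± 0.13, edgeR adjusted p = 0.0203). PB3-PAC-R overlapped PB3-Parental there. Setbp1, whose product binds the SET protein, rose from 6.59 and 3.42 to 21.3 and 22.9 CPM, and PB3-PAC-R had 24.3 and 21.6 (2.13 ± 0.31, edgeR adjusted p = 0.0203). Golt1b rose from 18.4 and 11.9 to 42.3 and 43.7 CPM, with 29.0 and 40.2 in PB3-PAC-R, while PB3-ERI-R had 0.909 and 1.52 (PB3-VIN-R minus PB3-Parental log2 1.50 ± 0.23, edgeR adjusted p = 0.0259). At Nr3c2 the other 5 regions rose from 19.4 and 21.5 to 29.8 and 35.4 CPM, with 194 and 177 in PB3-ERI-R (0.67 ± 0.13, edgeR adjusted p = 0.0489). The 3 loci that fell were Stpg2, Kcp and Lmo1, a LIM-domain factor gene, which fell from 122 and 110 to 77.7 and 70.1 CPM (-0.65 ± 0.11, edgeR adjusted p = 0.0355). The count of 17 was 1 without the second PB3-Parental library, 7 without either PB3-ERI-R library, and 6 and 0 without the first and second PB3-VIN-R library. That of 3 was 0, 1, 1, 1 and 0 in the same order. DESeq2 called 38 and 10, and the fit with the replicate number as a block 84 and 30.

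**Figure D5:**
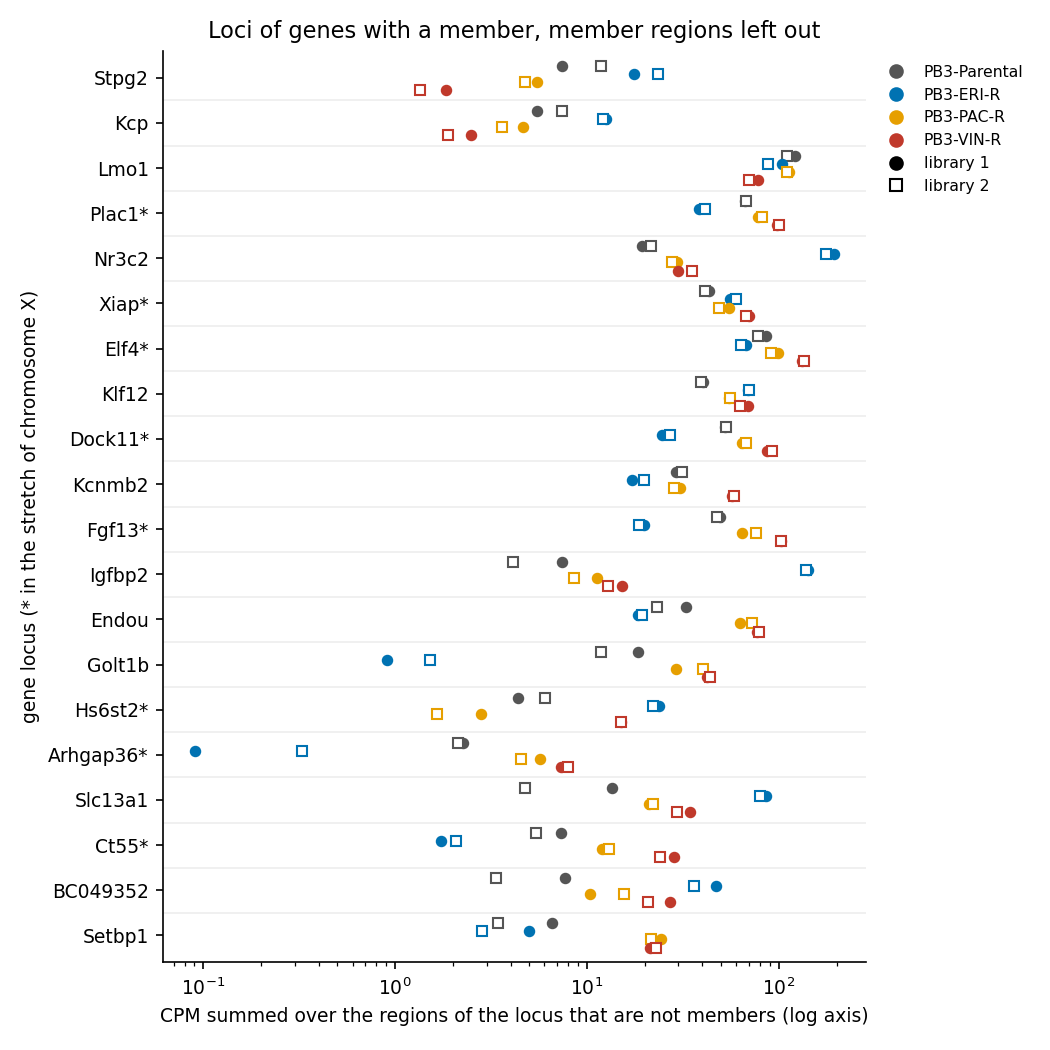
CPM of each library, on a log axis, summed over the non-member regions of the 20 loci of genes with a member that passed the test for PB3-VIN-R against PB3-Parental, ordered by their log2 difference. Stars mark the 8 loci of the stretch of chromosome X; at the 17 loci that rose both red PB3-VIN-R points lie to the right of both grey PB3-Parental points, and at the 3 that fell (the top rows) to the left.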

How the data were processed

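ATAC-seq was measured in 8 libraries, 2 for each of the 4 cell lines named in the labels, which set the groups. Per the submitters' processing notes, the builds were GRCm38 and mm10, and the tools included deepTools, featureCounts, MACS2 2.1.1 and Bowtie2 2.2.6, along with Picard, cutadapt 1.9.1 and bcl2fastq 2.20.0.422. Settings were not among the sources used here. The authors deposited a table of raw counts, 1 row per consensus region. Their deposited peak lists, 1 per line and so with both libraries combined, give a score, a fold enrichment and a -log10 q value for each summit. The deposited consensus list holds other values, the position of each region.

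The members, the gene lists, the motifs and the tests were chosen with earlier results of these data known. Regions were fitted with edgeR 4.0.16 (R 4.3.3): filterByExpr, TMM, quasi-likelihood, all 8 libraries, 1 term per line, and Benjamini-Hochberg adjustment over 57415 regions at 0.05. The residual degrees of freedom were 4 and the biological coefficient of variation 0.161. Standard errors are the fold change over the square root of F. Loci are sums over the regions nearest to a protein-coding gene within 50 kb, without members, fitted likewise over 14596 loci. Genes and promoter sequences come from RefSeq for GRCm38.p6; the start table holds no chromosome 18. Totals per library ran from 10521964 to 24052237 counts, and 3 counts correspond to 0.125 to 0.285 CPM. Calls at members are a description in every contrast, since the peak rule used all 4 lines; tests were read only at non-member regions and loci. The procedure was tested on simulated data with the same spread at all regions and no effect of the replicate number. That test does not cover the changes with single libraries or with that number.

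Named were the 10 members with the largest difference (PB3-VIN-R mean of at least 2 CPM, gene within 50 kb, 1 per gene), the 10 highest, the 10 highest within 1 kb of a gene end, the 10 genes with most members, up to 3 genes per list, 3 regions on each side of the threshold, and up to 5 members or neighbours per direction by smallest p. All 6 members called for PB3-PAC-R are named. Alternatives covered scaling, filters, thinning, window offsets, DESeq2 1.42.0, the lines in the fit, the replicate number and each library left out.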

Additional observations from a re-analysis of the deposited data

How the results depend on the processing

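The members were 51 when the PB3-VIN-R peak had to reach the median -log10 q of its list and 816 when it had to reach the top score. With the replicate number as a block, PB3-VIN-R was called higher than PB3-Parental at 498 members and lower at 1, PB3-PAC-R higher at 72 and lower at 6, neighbours within 50 kb higher at 307 and lower at 337, and loci higher at 84 and lower at 30. The labels tie same-numbered libraries of different lines by that number only. Their deviations correlated at 0.36 between PB3-Parental and PB3-PAC-R, 0.396 between PB3-Parental and PB3-VIN-R, and 0.446 between PB3-PAC-R and PB3-VIN-R. In the pairs with PB3-ERI-R the correlations were 0.073 to 0.182. With 2 numbers and no named batch, whether the libraries were paired cannot be told. With loess offsets the counts were 72 members higher for PB3-VIN-R and 3 for PB3-PAC-R, 1268 for PB3-ERI-R with a median of -0.94, and 21 neighbours lower. With only the lines compared they were 66 and 0 members higher, and 22 neighbours higher and 13 lower. DESeq2 called PB3-PAC-R higher at 13 members and lower at 1, neighbours higher at 70 and lower at 75, and loci higher at 38 and lower at 10. Without a scaling factor PB3-ERI-R was higher at 160 members with a median of -1.80, 22 neighbours fell and 5 loci fell. With upper-quartile factors these were 143, -1.83 and 19 neighbours. DESeq2 size factors left 23 neighbours that fell, and thinning 22 neighbours and 1 locus. Window offsets left 7 loci that rose and 1 that fell, neighbours within 10 kb numbered 8 higher and 3 lower, and without the stretch of chromosome X, an alternative chosen after seeing the data, 9 loci rose.

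Leaving out 1 library at a time, members called higher for PB3-VIN-R ran from 6 to 262 and lower from 0 to 1, with a median log2 difference of 0.17 to 0.37. For PB3-PAC-R they ran from 0 to 34 and from 0 to 1. For PB3-ERI-R, 262 to 386 were higher. Neighbours ran from 1 to 130 higher and 1 to 88 lower, and loci from 0 to 17 higher and 0 to 4 lower. A line left with 1 library is assumed to vary like the others. The other alternatives left each count within 1.5 times.

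Single calls rest on 2 libraries per line, and the median member had 61 to 78 counts in the libraries of PB3-Parental and PB3-PAC-R. Peak lists combine the libraries of a line, so membership has no replicate check. Counts carry no molecular identifiers, and floors cover counting error only.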
